A study of Rattus norvegicus with 6 samples.

Results

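The osmolyte and polyol genes of the rat kidney were taken as 8 named genes: Slc6a12, Slc5a3, Slc14a2, Akr1b1, Sord, Nfat5, Hspa4l and Smpdl3a. They were chosen by name, from 15645 gene symbols that could be matched to the array, and 17 of its 61537 probes belonged to them. RNA was measured in the renal cortex of 6 rats, all male, of the Sprague-Dawley strain and 5 weeks old when purchased. In the control group, 3 rats received water for 4 weeks. In the other group, 3 rats received dipropylene glycol (DPG), a solvent made of linked propylene glycol units, at 1000 mg/kg/day for 4 weeks. Each animal was hybridised to 1 Agilent one-colour (Cy3) array. The question was which genes of the renal cortex differed in expression after DPG.

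Kidney cells exposed to concentrated surroundings balance the salt and urea outside with small organic solutes called osmolytes, chiefly sorbitol, betaine, myo-inositol, taurine and glycerophosphocholine. Sorbitol is made from glucose by aldose reductase and turned into fructose by sorbitol dehydrogenase, which together form the polyol pathway, while betaine and inositol are carried in by sodium-coupled transporters. The transcription factor NFAT5 (also called TonEBP) binds tonicity-responsive enhancers (TonE) and drives transcription of several of these genes when tonicity rises, above all in the medulla.

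The stretch before the start of Slc6a12 is shown because this betaine transporter had the smallest p of the 8 genes, and because genes of this kind are the classic targets of NFAT5. It holds the 250 bases before the start used in RefSeq's table for the rat assembly GRCr8, chr4:156257268-156257517 on the plus strand, written 5′ to 3′. Capitals mark GGAAA, the shared core of sites bound by NFAT family factors. The 29 bases around the same letters are shown for Slc5a3 (chr11:44799632-44799660) and Sord (chr3:129638518-129638546), both on the plus strand, to set their surroundings beside those in Slc6a12.
Slc6a12: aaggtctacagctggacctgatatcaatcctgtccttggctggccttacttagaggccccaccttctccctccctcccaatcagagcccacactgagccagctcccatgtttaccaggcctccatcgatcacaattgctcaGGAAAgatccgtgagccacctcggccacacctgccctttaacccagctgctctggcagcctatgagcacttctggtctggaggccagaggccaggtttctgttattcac
Slc5a3: ttgagaagcggaGGAAAtttaaactgtct
Sord: cttaggtctgaaGGAAAtctcgtccccaa

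GGAAA began 109 bases before the start in Slc6a12, 143 bases before it in Slc5a3 and 138 bases before it in Sord. In Sord the start used lies inside the annotated gene, chr3:129638282-129669727. The bases shown for Sord therefore also lie inside that gene and not upstream of it. The letters searched first were TGGAAA, on both strands, in windows of 250 bases before to 50 bases after the start. TGGAAA was in 22.7% of the 33469 windows in the table, and in 0 of the 7 windows that 6 of the members had. Akr1b1 and Nfat5 had no window in the table and could not be searched. The whole TonE consensus, which contains TGGAAA, was in 5.98% of all windows and likewise in 0 of the 7. The shorter GGAAA, searched after this was seen and contained in both others, was in 62.7% of all windows and in 5 of the 7. No match says only that the letters are not in these windows, and a match is not a measured binding site.

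The 6 arrays were similar in quality, with control 3 somewhat apart. Between 39556 (control 3) and 43184 (control 2) probes per array were well above background, and 0 spots were saturated. Control 3 had 34 probes with an outlier flag, DPG 1 had 4 and the other arrays 0. None of these flags fell on the 17 member probes. The correlation of log2 signal was 0.991 to 0.994 between arrays of 1 group and 0.989 to 0.993 between arrays of different groups. The control arrays lay on 1 slide with its own scan and the DPG arrays on another, so slide, scan and group cannot be told apart. All values below are log2 signal relative to the array's own 75th percentile, and differences are DPG over control. They were tested with limma (moderated statistics, two-sided) over 29647 features and adjusted by Benjamini-Hochberg. With limma, 0 features passed an adjusted p of 0.05 (0% of those tested), while 3669 had an unadjusted p under 0.05 (12.4%), 6.68% higher and 5.7% lower. The number of arrays limits the precision, and the smallest two-sided p open to an exact permutation of 3 animals against 3 is 0.1. In bulk tissue, fewer cells of a type and less RNA per cell cannot be told apart.

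All 8 members had a feature that could be tested, and 15 of their 17 probes passed the filter on dim probes. None passed the adjusted threshold in limma. Slc6a12 and Nfat5 were higher and Sord was lower at an unadjusted p under 0.05, which is 3 of 8 beside 12.4% of all features. The DPG and control values did not overlap for the same 3 genes, beside 19.7% of all features. Slc5a3 had the largest difference of the 8, but its groups overlapped. The median difference over the 8 genes was 0.026, beside 0.0035 over all features, with 5 genes above 0 and 3 below (50.8% of all features were above 0).

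**Figure D1:**
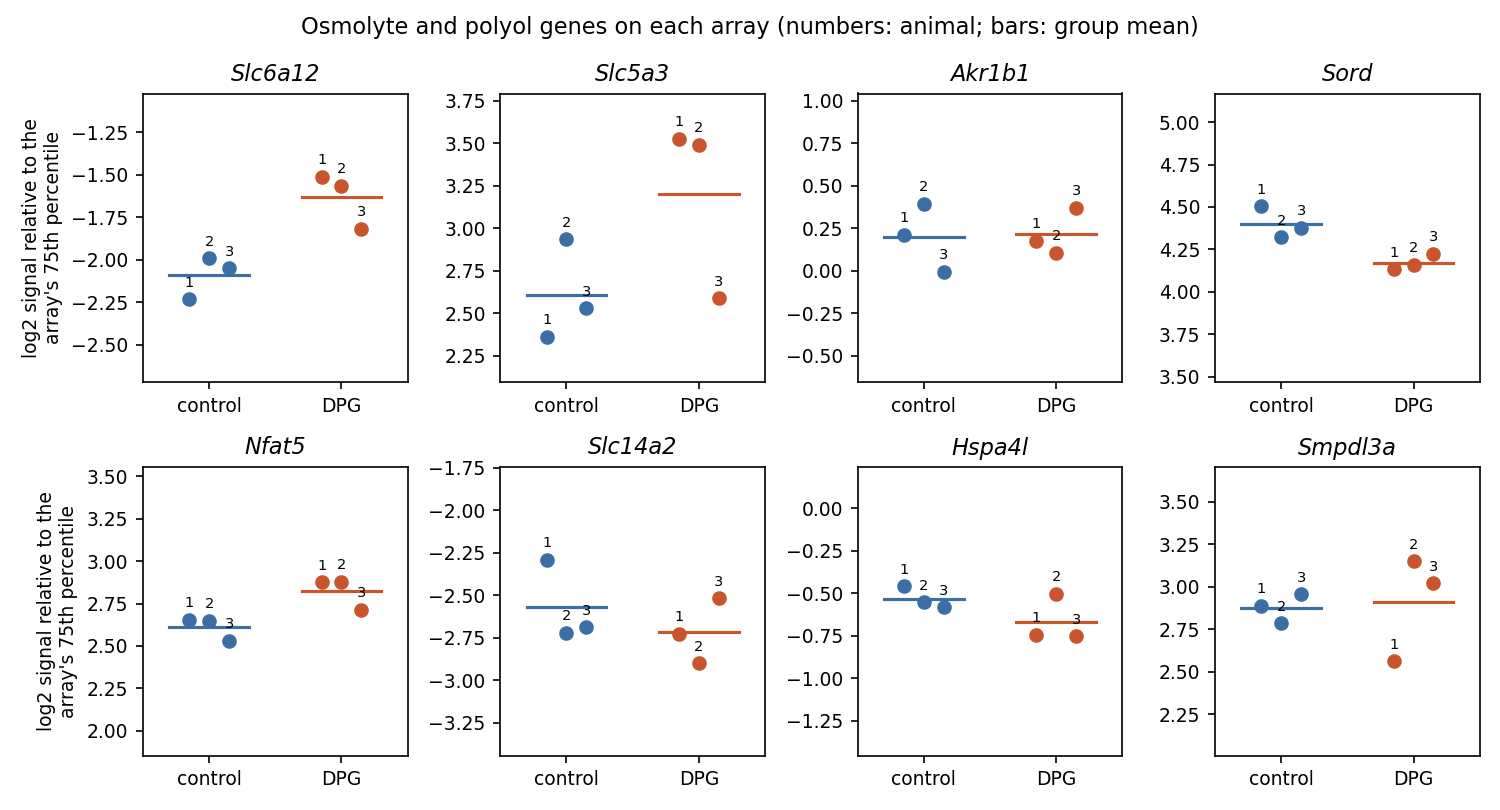
Log2 signal relative to the 75th percentile of each array (vertical axis, the same span in every panel) for the 8 genes in control and DPG rats; each point is 1 animal, numbered, and each bar is a group mean. The 3 DPG points lie above every control point for Slc6a12 and Nfat5 and below every control point for Sord; for Slc5a3, DPG 3 lies within the range of the controls.

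Slc6a12 encodes the betaine and GABA transporter BGT1, which brings betaine into cells under hypertonic conditions. Its signal was -2.23, -1.99 and -2.05 in controls 1 to 3 and -1.51, -1.56 and -1.82 in DPG rats 1 to 3 (probe A_42_P596458, designed on NM_017335). Every DPG animal was above every control, with DPG 3 the nearest to them. The group means were -2.09 ± 0.12 (SD, n = 3) in controls and -1.63 ± 0.16 (SD, n = 3) under DPG. This difference was 0.46 ± 0.11 (SE; 95% interval 0.19 to 0.74), a 1.38-fold higher signal, with an unadjusted limma p of 0.00651 and an adjusted p of 0.276. In size it exceeded 92.9% of all features. The second probe, A_44_P141992, was dimmer and was above background on 2 of the 3 control arrays and on all 3 DPG arrays. It read -4.09, -4.69 and -5.30 in controls and -3.57, -4.09 and -3.81 under DPG, so that DPG 2 was level with control 1 and the groups met. Since it passed the filter on dim probes only through the DPG arrays, where it is the brighter, no test of it is given. With normexp background correction the difference of the first probe was 0.27, with an unadjusted limma p of 0.0381.

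Slc5a3 encodes SMIT1, the sodium-coupled transporter that accumulates myo-inositol. Its brightest probe (A_64_P082341, on NM_053715) read 2.36, 2.93 and 2.53 in controls and 3.53, 3.49 and 2.59 under DPG. DPG 1 and DPG 2 were above every control, and DPG 3 was between control 3 and control 2. The means were 2.61 ± 0.30 (SD, n = 3) and 3.20 ± 0.53 (SD, n = 3), and the difference of 0.59 ± 0.29 (95% interval -0.13 to 1.31; 1.51-fold) had an unadjusted limma p of 0.0897 and an adjusted p of 0.473.

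The other probes of Slc5a3 split the animals in the same way. A_44_P540690 read -0.016, 0.55 and 0.05 in controls and 1.20, 1.22 and 0.31 under DPG, a difference of 0.72 ± 0.29 with an unadjusted limma p of 0.0489. A_44_P540693 read -1.46, -0.90 and -1.34 in controls and -0.20, -0.28 and -1.09 under DPG, a difference of 0.71 ± 0.28 with an unadjusted limma p of 0.0437. In all 3 probes DPG 3 lay within the range of the controls and the other DPG animals did not. Without DPG 3, the difference of the brightest probe was 0.90, with an unadjusted limma p of 0.00479 and an adjusted p of 0.249. Without any 1 of the other 5 animals it was 0.43 to 0.76, with unadjusted limma p-values of 0.0640 to 0.239. With normexp background correction it was 0.63, with an unadjusted limma p of 0.0498.

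Slc14a2 encodes the urea transporter UT-A, which lets urea cross the inner medullary collecting duct and the thin descending limb. Only 1 of its 3 probes was above background: A_44_P315895 (NM_177962) read -2.29, -2.72 and -2.69 in controls and -2.73, -2.90 and -2.52 under DPG. The groups overlapped, with the highest value in control 1 and the lowest in DPG 2. The difference was -0.15 ± 0.16 (95% interval -0.53 to 0.24), with an unadjusted limma p of 0.382 and an adjusted p of 0.729. Probes A_64_P074029 (NM_177962) and A_43_P12032 (NM_019347) were above background on 0 of the 6 arrays.

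**Figure D2:**
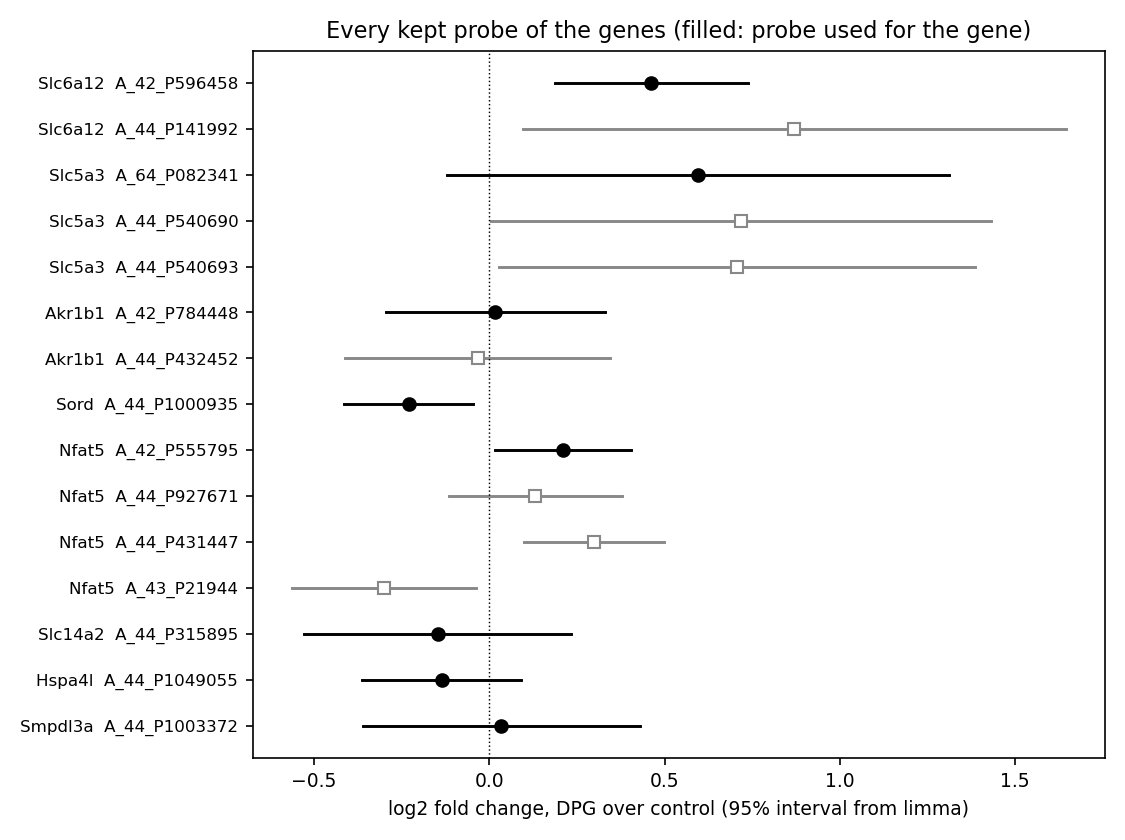
Difference in log2 signal, DPG over control (horizontal axis), with its 95% interval from limma for each of the 15 kept probes; filled circles are the probes that stand for a gene and open squares the others. The dimmer probe of Slc6a12 passed the filter only through the DPG arrays, so its interval is not to be read as a test. The 3 probes of Slc5a3 lie between 0.59 and 0.72, and the 4 probes of Nfat5 lie on both sides of 0.

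Akr1b1 encodes aldose reductase, the first enzyme of the polyol pathway, which makes sorbitol. Its brighter probe (A_42_P784448, NM_012498) read 0.21, 0.39 and -0.0067 in controls and 0.18, 0.11 and 0.37 under DPG. The groups covered nearly the same range, and the difference was 0.017 ± 0.13 (95% interval -0.30 to 0.33), with an unadjusted limma p of 0.899. A_44_P432452 read -1.65, -1.18 and -1.74 in controls and -1.50, -1.61 and -1.55 under DPG, a difference of -0.034 ± 0.15 with an unadjusted limma p of 0.836. Neither probe separated the groups. The intervals leave room for a difference of about the size seen in Nfat5 or Sord in either direction. The array also carries the related reductases Akr1b8 and Akr1b10, and whether these probes share signal was not tested.

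Sord encodes sorbitol dehydrogenase, the second enzyme of the pathway, which oxidises sorbitol to fructose. It had 1 probe (A_44_P1000935, NM_017052), which read 4.50, 4.32 and 4.38 in controls and 4.13, 4.16 and 4.22 under DPG. Every DPG animal was below every control. The means were 4.40 ± 0.093 (SD, n = 3) and 4.17 ± 0.047 (SD, n = 3). The difference was -0.23 ± 0.075 (95% interval -0.41 to -0.046), a 1.17-fold lower signal, with an unadjusted limma p of 0.0224 and an adjusted p of 0.346. The unadjusted p was 0.0684 without control 1, 0.0696 without DPG 1 and 0.0588 without DPG 2, with differences of -0.18, -0.21 and -0.22. The pair of polyol enzymes thus gave 1 lower signal and 1 with no separation; the difference between them was not tested.

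Nfat5, the regulator, was measured by 4 probes on NM_001107425. The brightest, A_42_P555795, read 2.66, 2.65 and 2.53 in controls and 2.87, 2.88 and 2.71 under DPG. All DPG animals were above all controls, by a narrow margin between DPG 3 and control 1. The means were 2.61 ± 0.070 (SD, n = 3) and 2.82 ± 0.094 (SD, n = 3), and the difference of 0.21 ± 0.079 (95% interval 0.016 to 0.40; 1.16-fold) had an unadjusted limma p of 0.0381 and an adjusted p of 0.385.

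The 4 probes of Nfat5 disagreed in direction. A_44_P927671 read 1.33, 1.19 and 1.36 in controls and 1.56, 1.46 and 1.26 under DPG, overlapping groups with a difference of 0.13 ± 0.10 and an unadjusted limma p of 0.240. A_44_P431447 read -1.40, -1.49 and -1.53 in controls and -1.20, -1.06 and -1.26 under DPG, higher in every DPG animal by 0.30 ± 0.081 with an unadjusted limma p of 0.0104. The dimmest probe, A_43_P21944, read -3.23, -3.42 and -3.47 in controls and -3.52, -3.68 and -3.82 under DPG. It was lower in every DPG animal, with a difference of -0.30 ± 0.11 and an unadjusted limma p of 0.0313. The mean of the 4 probes gave 0.085, with an unadjusted limma p of 0.344. For the brightest probe the unadjusted p was above 0.05 when any animal but DPG 3 was left out: 0.0589, 0.0625 and 0.115 without controls 1, 2 and 3, and 0.110 and 0.106 without DPG 1 and DPG 2. It was 0.0590 with quantile normalization and 0.0653 without the filter on dim probes.

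Hspa4l encodes a chaperone of the HSP110 family that is induced by osmotic stress. Its probe (A_44_P1049055, NM_001106428) read -0.46, -0.55 and -0.58 in controls and -0.75, -0.50 and -0.75 under DPG. DPG 1 and DPG 3 were below every control, and DPG 2 was within their range. The difference was -0.14 ± 0.093 (95% interval -0.36 to 0.092), with an unadjusted limma p of 0.195 and an adjusted p of 0.596. Without DPG 2 it was -0.22, with an unadjusted limma p of 0.0388, and without any 1 of the other 5 animals it was -0.16 to -0.093, with unadjusted limma p-values of 0.211 to 0.415.

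Smpdl3a encodes a secreted phosphodiesterase related to acid sphingomyelinase. It read 2.89, 2.78 and 2.96 in controls and 2.56, 3.15 and 3.02 under DPG (probe A_44_P1003372, NM_001005539). The DPG animals lay on both sides of the controls, with SDs of 0.31 and 0.087 (n = 3 each). The difference was 0.034 ± 0.16 (95% interval -0.36 to 0.43), with an unadjusted limma p of 0.839 and an adjusted p of 0.949.

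**Figure D3:**
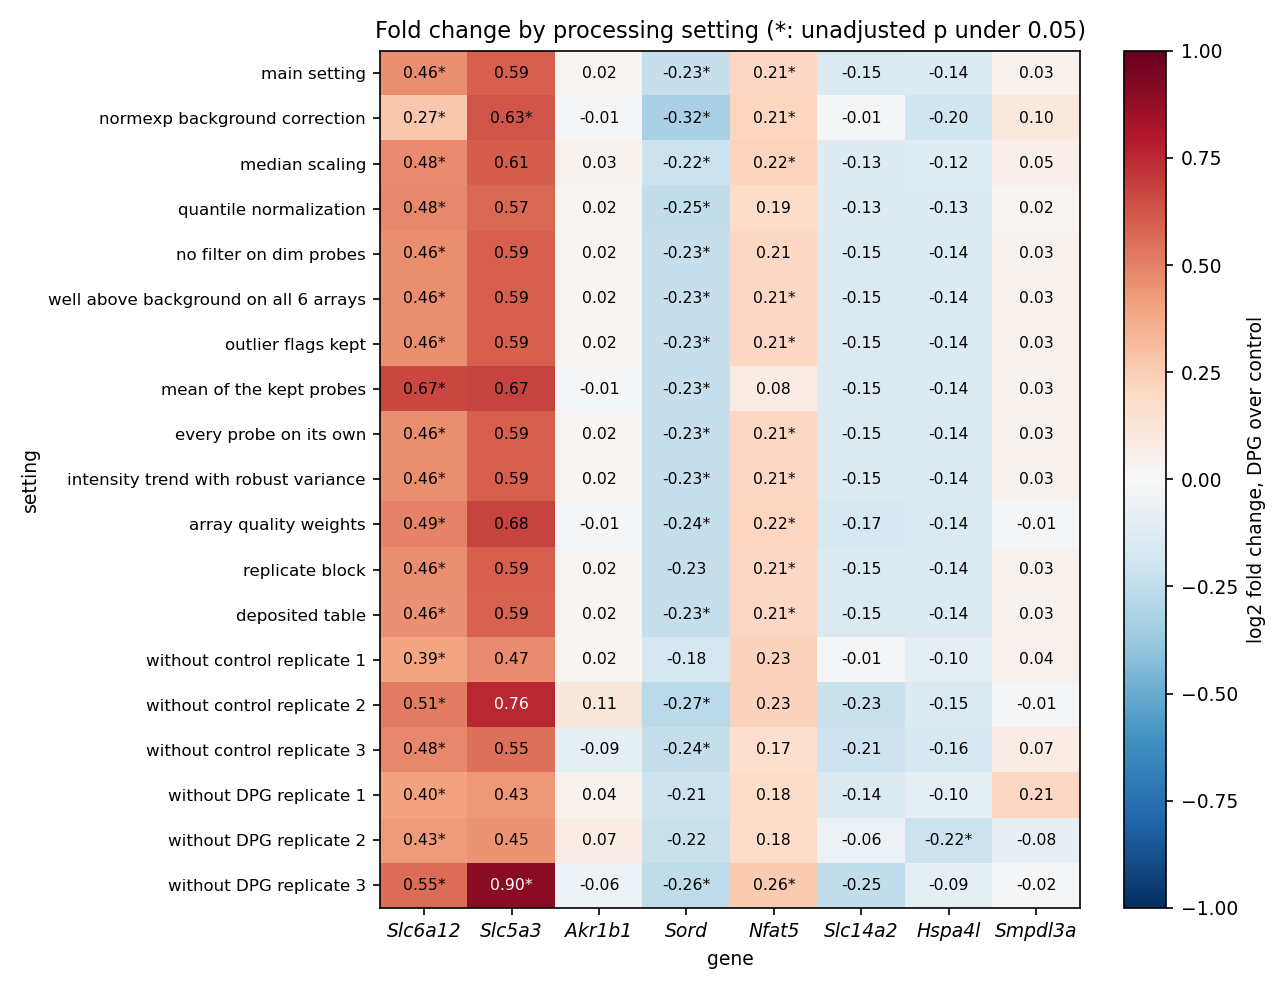
Log2 fold change of each gene, DPG over control (columns, coloured and printed), under the setting used and its 18 alternatives (rows); an asterisk marks an unadjusted limma p under 0.05. Slc6a12 carries the asterisk in every row, with values of 0.27 to 0.55 apart from the mean of the kept probes. That row takes in the dim probe kept through DPG, so its asterisk is not independent of the filter. Nfat5 and Sord lose the asterisk in some rows, and Akr1b1 takes both signs.

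The members were then set beside other genes of the same processes, in lists that overlap in part. For the lists, counts refer to an unadjusted limma p under 0.05, to be read against 12.4% of all features (6.68% higher and 5.7% lower), and 0 genes of any list passed an adjusted p of 0.05. The other osmolyte and urea transporters had 7 of 8 genes tested: 7 were above 0, 1 was past the unadjusted threshold and its groups were apart, and the median was 0.31. That gene was Slc2a13, which encodes the proton-coupled inositol transporter HMIT. It read -0.02, 0.30 and -0.06 in controls and 0.75, 0.79 and 0.67 under DPG, a difference of 0.66 ± 0.11 with an unadjusted limma p of 0.00112 and an adjusted p of 0.214. The count was 2 without DPG 2 or without control 1, and 3 without DPG 3. It was also 2 with normexp, the mean of the kept probes or an intensity trend with robust variance.

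The polyol and fructose enzymes had 9 of 9 genes tested, 4 above 0 and 5 below, with a median of -0.0066. Khk, ketohexokinase, the kinase that commits fructose to breakdown, was the 1 gene higher at an unadjusted p under 0.05. It read 8.16, 8.26 and 8.22 in controls and 8.44, 8.46 and 8.40 under DPG, a difference of 0.22 ± 0.064 with an unadjusted limma p of 0.0139. The 2 lower genes were Akr1b10 and Akr1a1, both aldo-keto reductases. Akr1b10 read 1.55, 1.36 and 1.27 in controls and 0.12, 0.88 and 1.01 under DPG (-0.72 ± 0.24, unadjusted limma p 0.0258), and its second probe gave -0.90. Akr1a1 read 6.73, 6.58 and 6.41 in controls and 6.28, 6.36 and 6.35 under DPG (-0.24 ± 0.098, unadjusted limma p 0.0470). The lower count was 1 without DPG 1 or DPG 2 and 0 without control 1 or control 2, and the higher count was 2 without DPG 1. With median scaling or no filter on dim probes the lower count was 1, and with an intensity trend the higher count was 2.

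All 6 inositol enzymes were tested, with a median of 0.13, and 5 of them were above 0. Impa1 and Impa2, which encode the inositol monophosphatases that release free inositol, lay on opposite sides. Impa1 read 2.25, 2.39 and 2.37 in controls and 2.52, 2.59 and 2.48 under DPG (0.19 ± 0.070, unadjusted limma p 0.0340). Impa2 read 4.63, 4.81 and 4.60 in controls and 4.45, 4.43 and 4.54 under DPG (-0.21 ± 0.083, unadjusted limma p 0.0470). The groups did not overlap in 4 of the 6 genes, Impa1, Impa2, Cdipt and Inpp1, beside 19.7% of all features. Only Impa1 and Impa2 passed the unadjusted threshold. Both calls depended on single animals and on the processing. The higher count was 0 without control 1, control 3, DPG 1 or DPG 2, and the lower count was 0 without any 1 animal other than control 3. With no filter on dim probes both counts were 0, with the mean of the kept probes the higher count was 0, and with median scaling the lower count was 0.

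Of the enzymes of betaine and glycerophosphocholine metabolism, 10 of 12 were tested, with 0 higher and 2 lower at an unadjusted p under 0.05 (5.7% of all features were lower) and a median of -0.064. Gpcpd1, which encodes an enzyme that breaks down glycerophosphocholine, read -0.60, -0.56 and -0.42 in controls and -1.05, -0.91 and -0.63 under DPG, a difference of -0.33 ± 0.12 with an unadjusted limma p of 0.0358. Aldh7a1, a betaine aldehyde dehydrogenase, read 7.53, 7.42 and 7.59 in controls and 7.29, 7.36 and 7.35 under DPG, a difference of -0.18 ± 0.072 with an unadjusted limma p of 0.0453. Both were lower in every DPG animal than in any control. The groups did not overlap in 4 of the 10 genes, 2 higher and 2 lower, beside 19.7% of all features. The lower count was 1 without control 1 or control 2 and 0 without control 3, DPG 1 or DPG 2. It was 1 with median scaling and 0 with no filter on dim probes, and 1 gene was higher with normexp.

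Among the kinases and other regulators of tonicity signalling, 22 of 23 genes were tested; 3 were higher and 2 lower at an unadjusted p under 0.05, beside 6.68% and 5.7% of all features, with a median of 0.037. Akap13 (Brx), an exchange factor upstream of NFAT5, had a difference of 0.23 ± 0.069 (unadjusted limma p 0.0153). Map3k3 (MEKK3), a kinase upstream of p38, had 0.25 ± 0.089 (unadjusted limma p 0.0328), although its 3 probes ranged from -0.06 to 0.25. Wnk4, a chloride-sensitive kinase, had -0.25 ± 0.082 (unadjusted limma p 0.0216), and Ptpn11 (SHP-2), a phosphatase, had -0.18 ± 0.066 (unadjusted limma p 0.0336), with its 4 probes between -0.24 and 0.22. The third higher gene was Tsc22d4, at 0.21 ± 0.077, with its 2 probes at 0.0066 and 0.21. Higher and lower counts were 6 and 0 without DPG 3, 1 and 1 without DPG 1 or without DPG 2, 2 and 1 without control 1, 2 and 2 without control 2, and 1 and 2 without control 3. They were 1 and 1 with no filter on dim probes or with the mean of the kept probes, 3 and 1 with median scaling, and 4 and 3 with normexp.

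Other genes known to respond to NFAT5 or to hypertonicity had 14 of 16 members tested, 11 above 0 and 3 below, with a median of 0.15. The 3 higher genes at an unadjusted p under 0.05, beside 6.68% of all features, were all chaperones. Hspb1 (HSP25) read 1.53, 1.45 and 1.58 in controls and 2.22, 2.29 and 2.15 under DPG, a difference of 0.70 ± 0.073 with an unadjusted limma p of 7.7e-05 and an adjusted p of 0.191. Cryab (αB-crystallin) read 4.36, 5.54 and 5.56 in controls and 7.01, 6.65 and 6.48 under DPG, a difference of 1.56 ± 0.35 with an unadjusted limma p of 0.00454. The third was Hspa1a (HSP70) at 1.13 ± 0.36, whose near-identical copy Hspa1b had no probe of its own. Higher and lower counts were 5 and 2 without DPG 3, and the higher count was 2 without control 1.

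**Figure D4:**
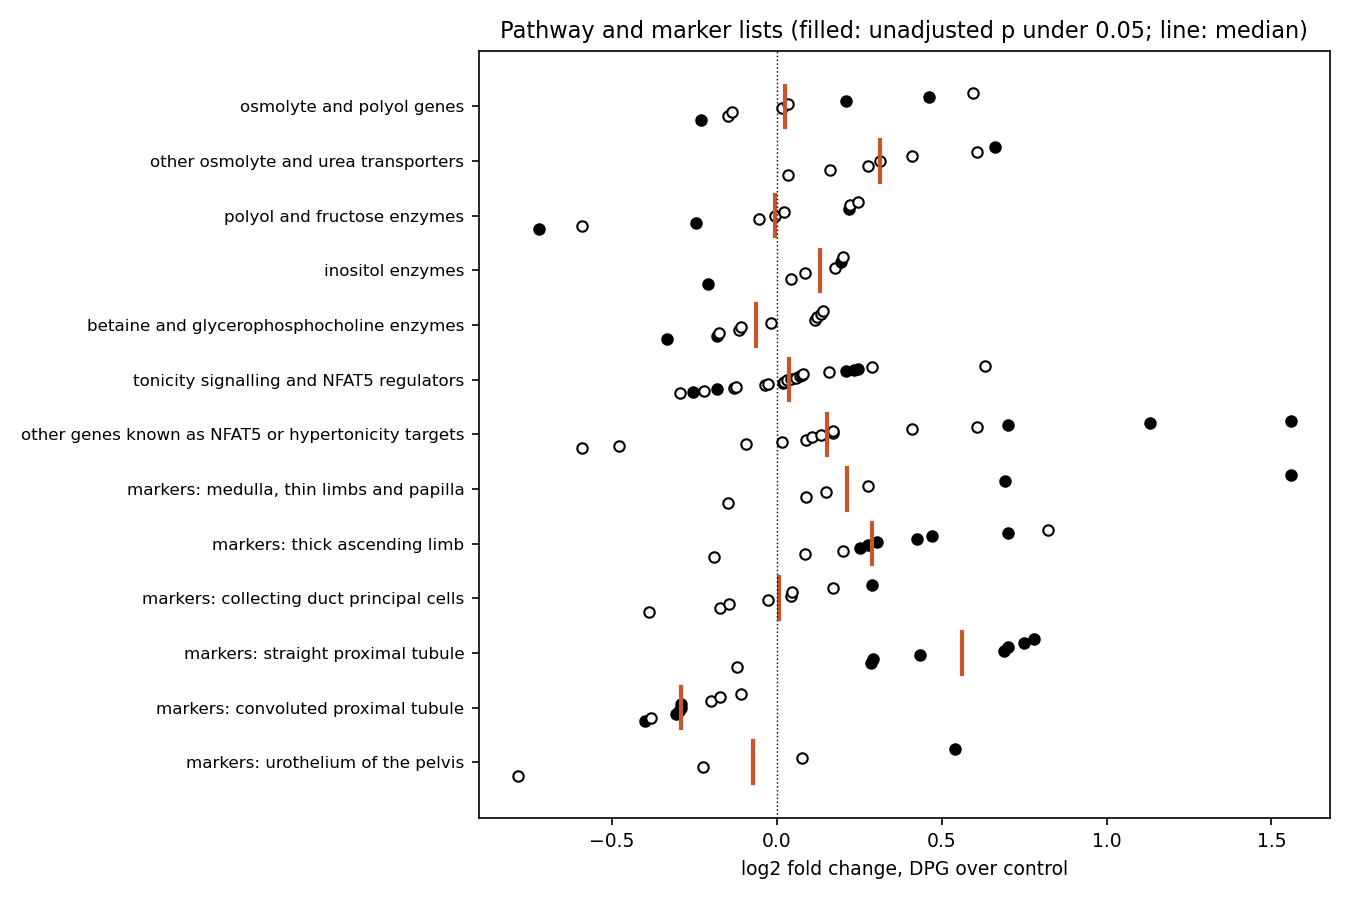
Log2 fold change, DPG over control (horizontal axis), of each tested gene of the 8 members and of the pathway and marker lists; each point is a gene, filled where the unadjusted limma p was under 0.05, and the vertical line is the median of the list. The median was 0.56 for straight proximal tubule markers, -0.29 for convoluted proximal tubule markers and 0.026 for the 8 members.

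The tissue was checked against markers of nephron segments, because osmolyte genes differ strongly between cortex and medulla. Markers of the straight part of the proximal tubule, which lies at the corticomedullary border, had 7 of 8 genes higher at an unadjusted limma p under 0.05 and a median of 0.56. The other gene, Slc5a1, had -0.12 ± 0.15, and both of its probes were at -0.12. The higher count was 6 with normexp or quantile normalization. The summed linear signal of the 8 genes, relative to the array's 75th percentile, was 600.2 to 766.6 in controls and 920.1 to 999.8 under DPG. Slc7a13, an amino acid transporter of that segment, read 7.14, 7.66 and 7.68 in controls and 8.35, 8.29 and 8.17 under DPG. Slc22a13, an organic anion transporter, had 0.69 ± 0.14 (unadjusted limma p 0.00239). Markers of the convoluted part went the other way: 9 of 9 were below 0 and 5 were lower at an unadjusted p under 0.05, with a median of -0.29 and summed signals of 617.4 to 676.5 in controls and 538.1 to 593.8 under DPG. Slc5a12, a lactate transporter, had -0.29 ± 0.077 (unadjusted limma p 0.00927), and Slc34a3, a phosphate transporter, had -0.30 ± 0.087 (unadjusted limma p 0.0146). The lower count was 3 without control 1, control 3, DPG 1 or DPG 2.

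Markers of the thick ascending limb had 6 of 10 genes higher at an unadjusted limma p under 0.05, a median of 0.29 and summed signals of 720.9 to 780.4 in controls and 844.2 to 925.1 under DPG. The claudins Cldn16 and Cldn19, which form the cation channel of its tight junctions, had 0.70 ± 0.063 (unadjusted limma p 3.4e-05) and 0.42 ± 0.083 (unadjusted limma p 0.00223). Of the 10 genes, Ptger3 alone was below 0 (-0.19 ± 0.14), as were all 3 of its probes. The higher count of this list was 8 with normexp, 7 with median scaling and 5 with quantile normalization. Markers of the medulla, thin limbs and papilla had 2 of 6 higher at an unadjusted limma p under 0.05, Cryab among them. Their median was 0.21, with 5 above 0 and 1 below. The gene below 0, Bcat1, was lower in every DPG animal than in any control (-0.15 ± 0.075). Their summed signal of 26.1 to 52.9 in controls and 96.3 to 136.7 under DPG was led by Cryab, which is also in the list of NFAT5 targets. Among these medullary markers, Slc14a1 was dim, with means of -4.63 in controls and -4.36 under DPG, a difference of 0.28 ± 0.25. Sptssb did not pass the filter on dim probes.

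Collecting duct principal cell markers overlapped in sum, at 158.0 to 197.0 in controls and 158.5 to 201.5 under DPG. Of 8 genes, 4 were above 0 and 4 below, with a median of 0.0076. The water channel gene Aqp4 was the 1 gene higher at an unadjusted p under 0.05 (0.29 ± 0.091), and its 4 probes ranged from -0.25 to 0.35. Below 0 were, among others, Aqp3 (-0.39 ± 0.19) and Gata3 (-0.15 ± 0.061), the latter lower in every DPG animal. The higher count was 0 without DPG 2, DPG 3 or control 2 and with normexp or the mean of the kept probes. At the same threshold, 1 gene was lower without DPG 2 or control 2. Urothelial markers were dim, with 4 of 7 tested and sums of 0.337 to 0.386 in controls and 0.367 to 0.450 under DPG. Of those tested, 2 were above 0 and 2 below, with a median of -0.073. Upk1a alone passed the unadjusted threshold (0.54 ± 0.12, unadjusted limma p 0.00416), while Krt5 had -0.22 ± 0.14. Upk3a, also below 0, read -5.22, -5.28 and -4.37 in controls and -5.34, -5.18 and -6.71 under DPG. With DPG 3 that dim, Upk3a may have passed the filter only through the controls, so no test of it is given. The counts and the median include it. All these sums add linear signals, so the brightest genes of a list weigh most. The marker sums of both proximal tubule parts, the thick ascending limb and the medulla differed between the groups without overlap, as did Slc6a12, Sord and Nfat5. The part of the marker sums in those 3 results was not tested.

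Across the 6 arrays, the 5 symbols whose log2 signal followed that of Slc6a12 most closely were Slc6a18 (Pearson r 0.997), Psmd8 (0.993), Ncapg2 (0.993), Serpinf2 (0.991) and Fam43a (0.991), of 11923 ranked. With 6 arrays that also differ by group and slide, 243 features reached an r above 0.95, so the order is a description. Slc6a18, a neutral amino acid transporter of the straight proximal tubule, is also in the marker list above. It read 5.10, 5.32 and 5.30 in controls and 5.82, 5.72 and 5.48 under DPG, with DPG 3 nearest to the controls as in Slc6a12. Among the members, r with Slc6a12 was -0.98 for Sord, 0.90 for Slc5a3 and 0.87 for Nfat5, and -0.091 for Akr1b1, over the same 6 arrays.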

How the data were processed

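Renal cortex RNA of 6 rats, 3 per group, was labelled with Cy3 and hybridised to 1 array each, per the labels' protocols. The series calls the animals biological replicates. Scanner files came from Agilent Feature Extraction (10.7.1.1 per the file headers, 10.7 per the submitters' processing notes). The intensity used is the deposited spot signal, background-subtracted and spatially detrended on a linear scale, per the file headers. A deposited table of the whole series, used as an alternative, holds for each spot a linear ratio of that signal to about the array's 75th percentile; its column medians were 0.110, 0.111, 0.114, 0.111, 0.108 and 0.112, it was not centred per gene and its direction matched the scanner signal, while the submitters' scaling step is not stated in these sources.

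The 75th percentile of an array was taken from its log2 signal. Probes had to be well above background on every array of either group; 23 probes with an outlier flag were dropped and 40383 kept. Probes were named through their accessions in RefSeq's table for GRCr8 (28206 matched 1 symbol, 33331 none); the array design is on another assembly, rn4. The brightest kept probe stood for a gene, giving 29647 features, 11924 with a symbol. The comparison used lmFit and eBayes of limma 3.58.1 (R 4.3.3), two-sided and without a trend, on 4 residual and 1.95 prior degrees of freedom. Single probes come from a fit with every probe on its own. Errors written as ± after a difference are standard errors. The code was tested on simulated data.

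All 8 members are described; of each list up to 2 genes per direction were named by smallest unadjusted p under 0.05, as were the 5 symbols most correlated with Slc6a12. Tested genes outside this rule were picked with their values in view. They were Tsc22d4, Hspa1a, Slc14a1, Bcat1, Cdipt, Inpp1, Slc5a1, Ptger3, Aqp3, Gata3, Upk3a, Krt5 and those in the closing section. The members and lists were chosen with earlier results of these data known. A gene that the naming rule took is not reported here. No other per-sample columns were used. Alternatives covered background correction, scaling, filters, probes of a gene, the variance model, array weights, a replicate block, the deposited table and leaving out each animal.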

Additional observations from a re-analysis of the deposited data

How the results depend on the processing

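Of 144 values (8 genes under 18 alternatives, 6 of which leave out 1 animal), 135 kept their direction. Setting aside the mean of the kept probes, Slc6a12 stayed above 0 with an unadjusted limma p under 0.05 in every alternative, between 0.27 and 0.55. That mean (0.67) takes in the probe that was kept only through the DPG arrays. Slc14a2 kept its side in all 18. The adjusted count was 0 in all 12 alternatives that kept 6 arrays. Slc5a3 passed the unadjusted threshold with normexp (0.63). Nfat5 no longer passed it with quantile normalization (0.19), no filter on dim probes (0.21) or the mean of the kept probes (0.085). Akr1b1 turned with normexp (-0.0088), the mean of probes (-0.0083) and array weights (-0.0083), and without control 3 (-0.086) or DPG 3 (-0.059). Smpdl3a turned with array weights (-0.015) and without control 2 (-0.012), DPG 2 (-0.085) or DPG 3 (-0.021). The cause was not tested. Leaving out each animal in turn gave ranges of 0 to 1 features past the adjusted threshold (1 without control 2 or DPG 2), 2567 to 3940 past the unadjusted one, and 1 to 4 members (1 without control 1 or DPG 1, 4 without DPG 3). The log2 differences then ranged from 0.39 to 0.55 for Slc6a12, 0.43 to 0.90 for Slc5a3, 0.17 to 0.26 for Nfat5, -0.27 to -0.18 for Sord, -0.22 to -0.093 for Hspa4l, -0.25 to -0.0089 for Slc14a2, -0.086 to 0.11 for Akr1b1 and -0.085 to 0.21 for Smpdl3a.

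The replicate numbers did not pair the animals: deviations of same-numbered animals correlated at -0.023, -0.087 and -0.069, and 0 of 3 numbers matched best. With the replicate block, 2987 features and 2 members passed the unadjusted threshold, and Sord (-0.23) no longer did, with an unadjusted limma p of 0.0594. The higher and lower list counts were then 1 and 0 for polyol enzymes, 0 and 0 for inositol enzymes, 0 and 1 for betaine enzymes, 2 and 1 for tonicity signalling and 0 and 0 for collecting duct markers. The pixel mean not being in the files used here, normexp was run on the median signal. Each slide held 1 group, so that no slide block could be fitted. Dim probes limit Slc14a2 and the second probe of Slc6a12. List counts under the alternatives were added after the data were seen.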

Other observations

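Several genes beyond the members showed the array pattern of Slc5a3, with DPG 1 and DPG 2 high and DPG 3 within or near the controls; they were picked after their values were seen, so no test is given for the group. Slc38a2, which encodes an amino acid transporter induced by hypertonicity, read 1.74, 1.80 and 1.70 in controls and 2.41, 2.94 and 1.72 under DPG (0.61 ± 0.30, unadjusted limma p 0.0866). Slc6a6, the taurine transporter, read 0.82, 0.87 and 0.97 in controls and 1.69, 1.44 and 0.76 under DPG (0.41 ± 0.24, unadjusted limma p 0.135). Tsc22d3 (GILZ), a leucine zipper protein induced by glucocorticoids, read 1.71, 1.94 and 1.47 in controls and 2.33, 3.03 and 1.65 under DPG (0.63 ± 0.35, unadjusted limma p 0.120). Sgk1, a kinase induced by corticosteroids and by osmotic stress, read 2.95, 3.03 and 2.20 in controls and 3.36, 3.56 and 2.12 under DPG (0.29 ± 0.43, unadjusted limma p 0.530). In Sgk1, control 3 was also low, so the split is not by group alone.

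Other genes of the lists did not share that pattern. Slc2a13, the inositol transporter HMIT, and Hspb1 had DPG 3 well above every control, at 0.67 and 2.15. Slc5a11 (SMIT2), a second sodium-coupled inositol transporter, read 2.91, 2.77 and 2.58 in controls and 3.26, 2.84 and 3.09 under DPG, and DPG 2 rather than DPG 3 fell within the controls (0.31 ± 0.14, unadjusted limma p 0.0649). Akr1b8, an aldose reductase relative, was between 2.66 and 3.45 in controls, at 1.72 and 2.61 in DPG 1 and DPG 2, and within the range of the controls in DPG 3 (-0.59 ± 0.45, unadjusted limma p 0.238).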
